A study of Drosophila melanogaster with 4 samples.

Results

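Genes that write, read or erase histone methylation, 9 in all, were examined for summits of the Dam-tagged histone methyltransferase Pr-set7 in neural stem cells of Drosophila melanogaster larvae. They form a set of heterochromatin and histone demethylase genes: Su(var)2-5, Su(var)3-9, Su(var)3-3, egg, G9a, Kdm2, Kdm4A, Kdm4B and Kdm5. Su(var)2-5 is the gene of HP1a, with locus tag CG8409. They are 9 of the 13922 protein-coding genes annotated on X, 4 and both arms of chromosomes 2 and 3. A summit was counted for a gene when it lay between 2000 bp before and 2000 bp after the gene span in dm6, the genome build of the files. With that rule 8 summits of each replicate were counted, at 5 of the 9 genes in replicate 1 and at 6 in replicate 2. Of all protein-coding genes, 28.3% and 34.9% were reached. Those genes are shorter, with a median of 2163 bp against 4368 bp for the 9, and these shares were not matched for length. Of these 8, 3 in each replicate were at Kdm2. Per 10 kb of gene and flanks, the 9 genes had 0.778 summits in each replicate. All protein-coding genes had 0.321 in replicate 1 and 0.449 in replicate 2, and the difference was not tested. Each value is the total of summits over the total length of genes and flanks. Long genes therefore weigh most in it, and it is not matched for gene length.

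The samples came from targeted DamID, in which a bacterial adenine methylase, Dam, is tethered to a chromatin protein and marks the GATC motifs it comes near, and the marked DNA is cut out, amplified and sequenced. The series holds 4 samples, 2 with UAS-Dam and 2 with UAS-Dam-Pr-set7 (construct pUASTattB-LT3-NDam-Pr-set7), all driven by grh-Gal4, which the submitters describe as specific to neural stem cells. Eggs were collected over 6 h for all samples. Embryos were raised at 25 °C and hatched larvae were kept at 29 °C until dissection 24 h after hatching. Each of the 2 batches held 1 sample of each genotype, so a difference between replicates cannot be told apart from one between batches. The number of larvae per sample was not stated. The summits of the 2 Dam-Pr-set7 samples are described below, 2876 in replicate 1 and 4281 in replicate 2, and the Dam-alone samples were not analysed here, so that no summit is set against the Dam background. Height is the authors' number of overlapping fragments at a summit, ranged from 12 to 279 in replicate 1 and from 11 to 204 in replicate 2, and was not scaled to depth. Sequencing depth is unknown, and a height is therefore also given as its percentile among all summits of its file.

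Heterochromatin is the compact, gene-poor part of the genome whose nucleosomes carry methylated lysine 9 of histone H3. Methyltransferases such as Su(var)3-9, Eggless and G9a place this mark, and HP1a, the product of Su(var)2-5, binds it through its chromodomain. Demethylases remove methyl groups, Su(var)3-3 (the fly LSD1) by amine oxidation and the Kdm proteins through a JmjC domain. Pr-set7 is itself a methyltransferase, which adds the first methyl group to lysine 20 of histone H4.

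Summits of both replicates were found at 4 of the 9 genes, Su(var)3-3, G9a, Kdm2 and Kdm4B, and at 3 of these the summits of the replicates lay at most 500 bp apart, which is called a pair here. Su(var)3-3 and Kdm2 carried pairs inside the gene, and the pair of G9a lay outside it. Su(var)2-5 and egg had a summit in replicate 2 only, Kdm5 had one in replicate 1 only, and Su(var)3-9 and Kdm4A had none in either. Across all protein-coding genes, 23.3% had a summit in both replicates by the same rule and 21.3% had a pair, with 28.3% reached in replicate 1, 34.9% in replicate 2 and 60.1% in neither. Longer genes were reached more often. When the 13922 genes were divided into 10 classes of equal size by length, the share with a pair was 17.1% in the class of Su(var)2-5 and 41% in that of Kdm4B. Summed over the classes of the 9 genes, these shares come to 2.3 genes with a pair, against 3 counted, and to 2.56 genes with a summit in both replicates, against 4. The number of genes with a pair was thus near that of genes of the same length, and no test was made over so short a list.

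**Figure D1:**
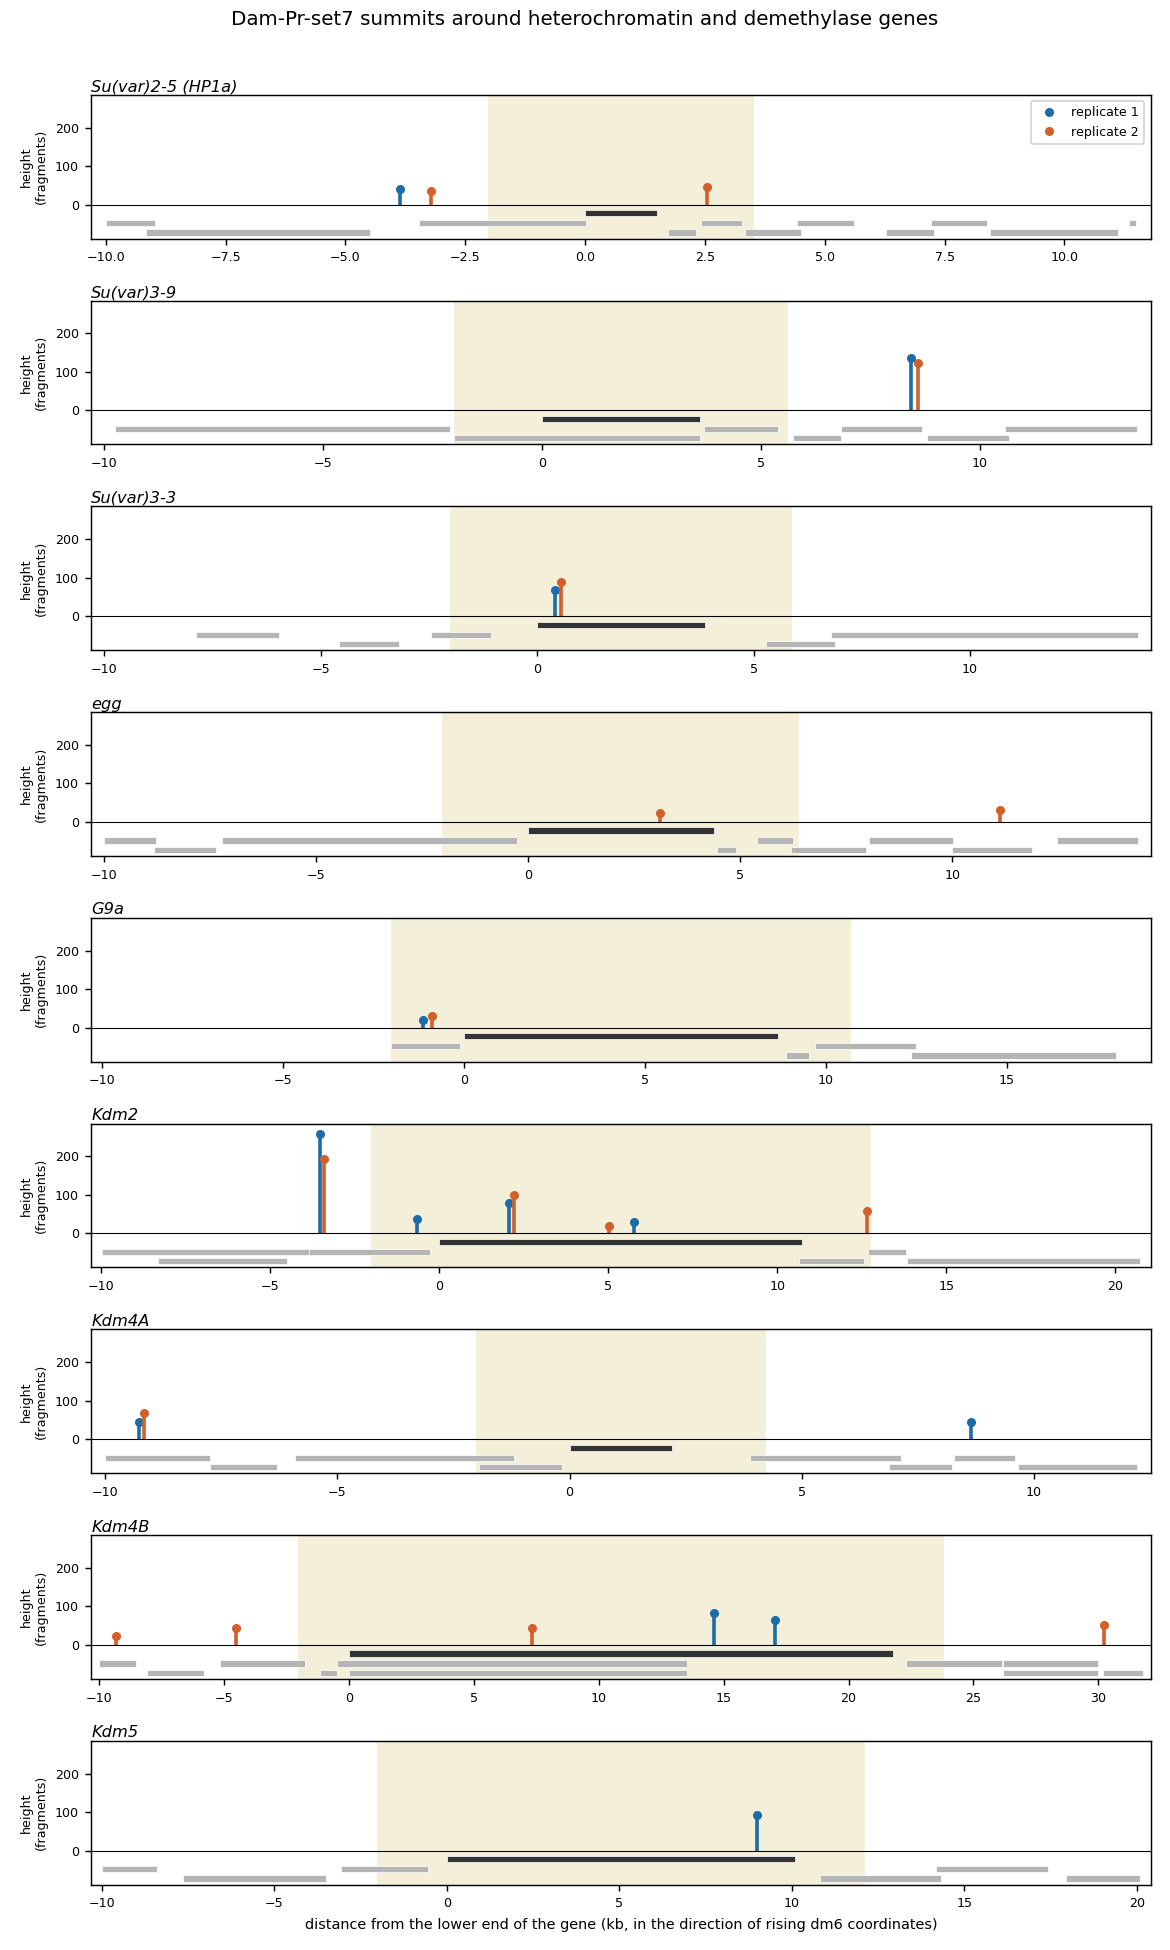
Summits within 10000 bp of each of the 9 genes, by distance from the lower end of the gene in kb (x axis) and height in fragments (y axis), for replicate 1 (blue) and replicate 2 (orange), which are drawn slightly to the left and right of their true position. Black bars are the gene itself, grey bars other protein-coding genes, and shading marks the span with 2000 bp on each side; the pairs of Su(var)3-3 and Kdm2 stand inside the black bars, and the shaded parts of Su(var)3-9 and Kdm4A are empty.

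Su(var)2-5 (CG8409 on 2L, 8209626 to 8211122, 1497 bp), the gene of HP1a, had no summit in replicate 1 and a single one in replicate 2, at 8212108 with 45 fragments (percentile 59.2). That summit lay 986 bp beyond the upper end of Su(var)2-5 and inside CG8372, 69 bp from an end of that gene. It was also within 1000 bp of an end of Ssb-c31a, which encodes a single-stranded DNA-binding protein, and of CG8360. The nearest summit of replicate 1 was on the other side of the gene, 3801 bp away at 8205825 (42 fragments). A replicate 2 summit lay at 8206348 (36 fragments), 523 bp from it and 3278 bp from Su(var)2-5, near the far end of the neighbouring gene CG8419. Within 2000 bp of Su(var)2-5 no position therefore had a called summit in both replicates.

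Su(var)3-9 (3R, 15259864 to 15263458), the methyltransferase of pericentric H3K9, had no summit within 2000 bp in either replicate. Its annotated span lies wholly within that of eIF2gamma (15257844 to 15263458), the gene of a translation initiation factor subunit, with which it shares its upper end. Only 93 bp separate this end from Set, the gene of a histone chaperone. The nearest summits formed a high pair at 15268355 (137 fragments, percentile 93.3) in replicate 1 and 15268389 (124 fragments, percentile 93.7) in replicate 2. They lay 34 bp apart, inside CG14864, and 4897 bp and 4931 bp from Su(var)3-9. A window of 5000 bp would thus have counted Su(var)3-9 by the summits of another gene.

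The SETDB1 homologue egg (2R, 24775534 to 24779901), which methylates H3K9 in the germ line and on chromosome 4, had 1 summit in replicate 2, inside the gene at 24778590. It was low, with 23 fragments (percentile 25.1), and lay 1311 bp from the upper end, where the antisense RNA gene asRNA:CR44067 is annotated as well. The nearest summit of replicate 1 was 12436 bp from egg, so that the replicate 2 summit had no counterpart in its surroundings.

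G9a (X, 245978 to 254650), a methyltransferase that acts on H3K9 in euchromatin, had 1 summit in each replicate. Replicate 1 had 21 fragments at 244897, and replicate 2 had 31 fragments at 245029, which is 132 bp away. They were 1081 bp and 949 bp beyond the lower end of G9a and inside its neighbour CG3038, which ends 121 bp from G9a. Their distances to the nearest end of CG3038 were 943 bp and 827 bp, so the pair lay nearer to an end of CG3038 than to one of G9a. It was the lowest pair among the 9 genes, with percentiles of 14.1 and 41.2.

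Among the demethylases, Su(var)3-3 (3L, 20226381 to 20230250), which removes methyl groups from lysine 4 of histone H3, had the pair with the closest agreement in position. Replicate 1 had 69 fragments at 20226864 and replicate 2 had 90 fragments at 20226865, a distance of 1 bp. Both lay inside the gene, 483 bp and 484 bp from its lower end. No other protein-coding gene had an end within 1000 bp. The nearest, CG17147, ended 1540 bp from the replicate 1 summit. With percentiles of 72.7 and 85.8 the summits were above the middle of both files, and there were no others within 10000 bp of the gene in either replicate.

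Kdm2 (3R, 9052495 to 9063245), the gene of a JmjC and F-box protein, held the most summits of the set, 3 in each replicate. Its pair was at 9054616 (79 fragments) in replicate 1 and 9054650 (99 fragments) in replicate 2, 34 bp apart and 2121 bp and 2155 bp inside the lower end. The pair had percentiles of 78.5 and 88.1, the highest mean of the 3 pairs, and no end of another protein-coding gene within 1000 bp. The second summit inside Kdm2 differed between replicates. It was at 9058307 (31 fragments) in replicate 1 and at 9057472 (20 fragments) in replicate 2, 835 bp apart, more than the 500 bp of a pair.

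The other summits counted for Kdm2 lay outside it, on opposite sides. In replicate 1 a summit of 38 fragments at 9051891 was 604 bp beyond the lower end and inside Mst85C. In replicate 2 a summit of 58 fragments at 9065095 was 1850 bp beyond the upper end, in the gap between beag, whose end was 17 bp away, and Ada, the adenosine deaminase gene. Neither had a counterpart in the other replicate within 2000 bp. Beyond the window, 3486 bp and 3479 bp from Kdm2, stood a pair of 258 and 194 fragments, inside both Mst85C and Nmdmc, with percentiles of 99.7 and 99.6. It is higher than any summit counted for the 9 genes.

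Kdm4B (2R, 13176553 to 13198337), a JmjC demethylase of H3K9 and H3K36 and at 21785 bp the longest of the set, had summits in both replicates but no pair. Replicate 1 had 82 fragments at 13191233 and 64 fragments at 13193689, and replicate 2 had 43 fragments at 13183814. The closest of these, between replicates, were 7419 bp apart. The first part of the Kdm4B span coincides with the genes seq, which encodes the zinc finger protein Sequoia, and CG17724, both of which end at 13190086. The replicate 2 summit was inside all 3 genes, whereas both replicate 1 summits were beyond the end of seq and CG17724, by 1147 bp and 3603 bp, in the stretch annotated to Kdm4B alone. The summits called in the replicates thus lay in different parts of this locus.

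Kdm4A (2R, 7922775 to 7924988), a demethylase of the same family whose protein binds HP1a, had no summit in its window. The nearest were at 7931472 in replicate 1 (44 fragments, 6484 bp away) and at 7913553 in replicate 2 (67 fragments, 9222 bp away). The latter had a replicate 1 summit of 46 fragments 19 bp from it, at 7913572, which is 9203 bp from Kdm4A. Kdm5 (2L, 5989400 to 5999501), also known as little imaginal discs and a demethylase of trimethylated H3K4, had 1 summit in replicate 1, inside the gene at 5998444 with 93 fragments. This was the highest replicate 1 summit of the set (percentile 83.2), 1057 bp from the upper end of Kdm5 and with no end of another protein-coding gene within 1000 bp. Replicate 2, the replicate with 1.49 times as many summits, had none nearer than 10685 bp to the gene. Where no summit was called, the depth of the library sets what could have been seen, and absence of the protein does not follow.

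**Figure D2:**
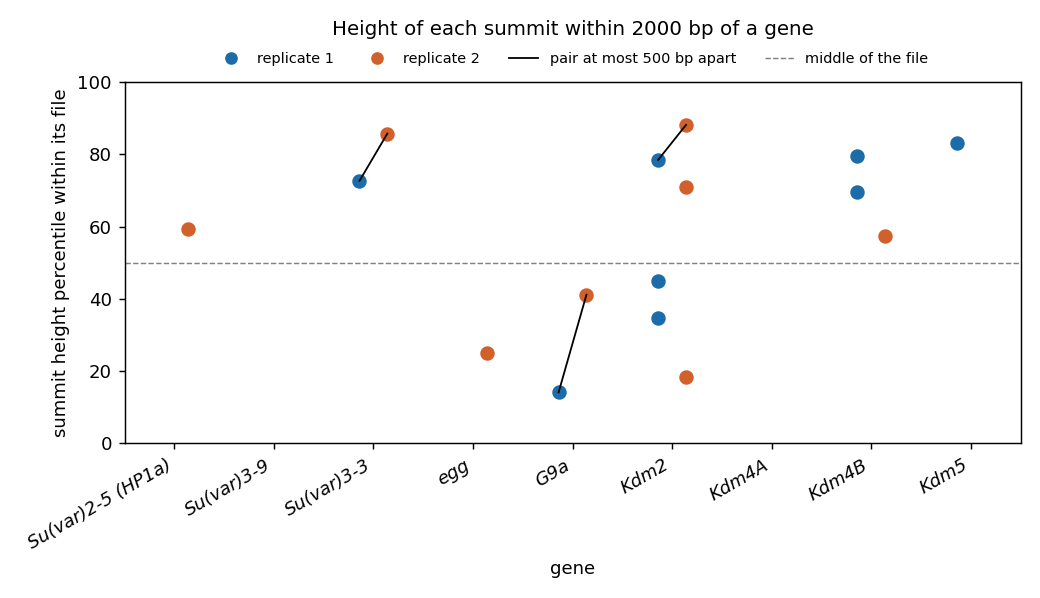
Height percentile within its file (y axis) of every summit counted for each gene (x axis), in replicate 1 (blue) and replicate 2 (orange), with lines joining pairs at most 500 bp apart and a dashed line at the middle of the file. The pairs of Su(var)3-3 and Kdm2 lie above the line, the pair of G9a lies below it, and Su(var)3-9 and Kdm4A have no point.

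Heights spread widely over the set. The 8 summits of replicate 1 had 21 to 93 fragments with a median of 66.5, and those of replicate 2 had 20 to 99 with a median of 44. Their median percentiles were 71.1 and 58.3, against 51.7 for the 2516 and 52.9 for the 3658 summits of the 2 files that lie within 2000 bp of any protein-coding gene. In each replicate 5 of the 8 (62.5%) were above the middle of their file, against 51.6% and 52.5% of all summits near protein-coding genes. None of the 8 exceeded a percentile of 83.2 in replicate 1 or 88.1 in replicate 2. In all 3 pairs the percentile was higher in replicate 2, by 13.1 points at Su(var)3-3, 27.0 at G9a and 9.67 at Kdm2. The direction was not counted over the pairs of all genes. Pairs of the other genes described below went both ways, for example from 59.8 to 74.0 at HP1c and from 95.6 to 93.2 at vig.

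Inside their own gene lay 6 of 8 summits in replicate 1 and 5 of 8 in replicate 2. Inside any protein-coding gene lay 8 of 8 and 7 of 8, against 78.9% and 80.7% of all summits near such genes. Within 1000 bp of an end of their own gene were 2 summits of replicate 1 and 3 of replicate 2. Within 1000 bp of an end of any protein-coding gene were 3 of 8 (37.5%) and 4 of 8 (50%), against 61.6% and 56.2% of all summits near such genes. Of the 8 summits 3 were paired in each replicate (37.5%), against 69.7% of all summits near genes in replicate 1 and 48.0% in replicate 2. The counted summits nearest to the limit of 2000 bp were those 1081 bp from G9a and 1850 bp from Kdm2, and the first one left out was the replicate 2 summit 3278 bp from Su(var)2-5, followed by the pair 3479 and 3486 bp from Kdm2.

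**Figure D3:**
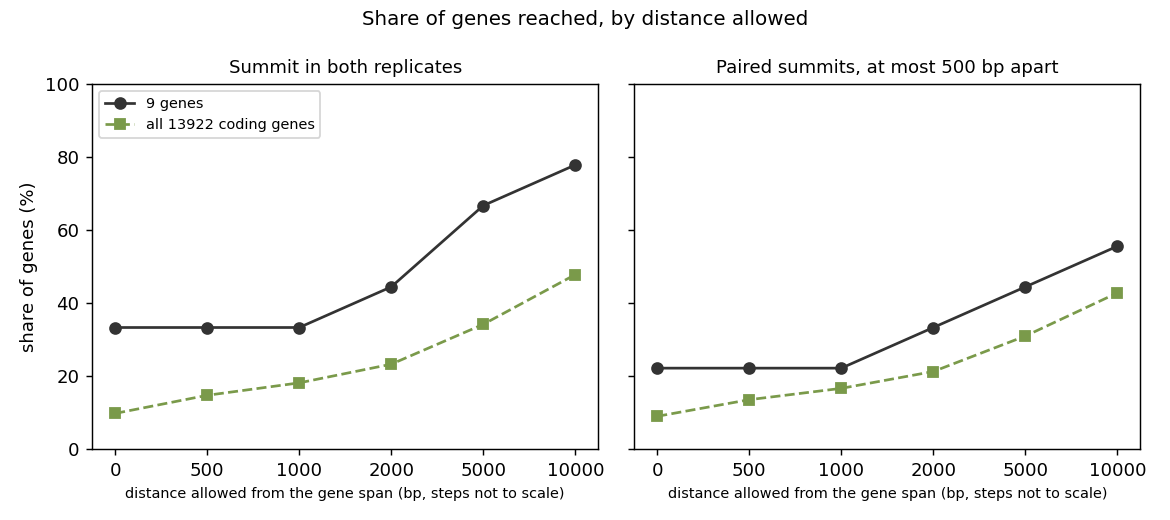
Share of genes in percent (y axis) with a summit in both replicates (left) and with a pair at most 500 bp apart (right), by the distance allowed from the gene span in bp (x axis, steps not to scale), for the 9 genes (circles) and all 13922 protein-coding genes (squares). The curve of the 9 genes rests on few genes and stays above that of all genes. All genes include many shorter ones, and shares by gene length were computed only for 2000 bp.

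The count depended on how far from a gene a summit may lie. Inside the gene span alone, Su(var)3-3 and Kdm2 kept their pairs, 2 of 9 genes against 9.06% of all genes, and 3 genes had a summit of both replicates against 9.85%. The same 2 and 3 genes were reached within 500 bp, where all genes had 13.6% and 14.8%, and within 1000 bp, where they had 16.7% and 18.2%. Within 5000 bp 4 genes had a pair and 6 had a summit of both replicates, against 31% and 34.2% of all genes, and Su(var)3-9 and Su(var)2-5 came in by summits in or beside other genes. Within 10000 bp, a distance chosen after the data were seen, it was 5 and 7 genes, against 42.8% and 47.8%. None of these shares of all genes was matched for gene length. The median length was 2163 bp for all genes and 4368 bp for the 9 genes.

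Further genes of the same pathways were compared through 3 lists. Of 25 other heterochromatin proteins, 6 had a pair within 2000 bp (24%), of 8 other demethylases and JmjC proteins 1 (12.5%) and of 11 other histone lysine methyltransferases 2 (18.2%), against 21.3% of all genes. No summit of either replicate lay near 14, 4 and 6 of them, respectively, while 60.1% of all genes had none. The highest pairs of the heterochromatin list were at vig (162 and 121 fragments), whose protein was found in RNA-interference complexes, sov (86 and 116), HP1b (86 and 70) and HP1c (52 and 63), of which HP1b and HP1c are relatives of HP1a. Only the sov pair lay right at the gene, 8 bp and 2 bp outside its span (X, 6756322 to 6770712). Those of vig, HP1b and HP1c were 916, 612 and 891 bp outside in replicate 1, and each was also within 1000 bp of other genes, vas and solo, APC4, and vret, respectively. The sov pair was likewise within 1000 bp of CG14439.

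Jarid2, whose protein accompanies Polycomb repressive complexes, had the single pair of the list of demethylases and JmjC proteins. It had 128 and 83 fragments, 1249 bp and 1241 bp outside the gene and within 1000 bp of pall and CG32036. Among the methyltransferases pairs were found at gpp, the fly Dot1 homologue that methylates lysine 79 of histone H3 (110 and 101 fragments), and at Set1, a methyltransferase of H3K4 (25 and 23 fragments). These lay 1868 bp and 1885 bp outside the genes in replicate 1, close to the limit of 2000 bp, and the gpp pair was also within 1000 bp of Dmtn. At Set8, which encodes Pr-set7, summits were called in replicate 2 only. They had 104 fragments at 14318134, inside the gene, and 39 at 14315767, 271 bp outside it. The sequence of Set8 is also carried by the transgene of the samples of both replicates, and whether transgene reads added to these summits was not tested. A pair inside the gene, as at Su(var)3-3 and Kdm2, was found in 1 of the 25 heterochromatin genes. It was found in 0 of the 8 genes of demethylases and JmjC proteins and in 0 of the 11 methyltransferase genes. With 9.06% of all genes having such a pair, counts this small are near the background. The heterochromatin gene was sov, with 58 fragments at 6759740 in replicate 1 and 78 at 6759752 in replicate 2.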

How the data were processed

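Genomic DNA of 4 targeted DamID samples was measured, and the summit lists of the 2 Dam-Pr-set7 samples were used. Per the labels' protocols, DpnI-cut DNA was amplified by PCR, and libraries prepared without further PCR were run on an Illumina MiSeq. The submitters' processing notes name MACS 1.4.2, Bowtie2 2.2.6 and bcl2fastq 2.19.0.316 with build dm6. They do not state peak cutoffs, duplicate filters or the use of a control. Each deposited summit is 1 bp wide with a signal, the number of fragments piled up there, and each sample has its own list.

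Groups came from the genotype in the labels. Replicate numbers 1 and 2 are names in order of deposit. Each batch paired 1 Dam with 1 Dam-Pr-set7 sample, but only the Dam-Pr-set7 samples entered here. Separate cultures of animals are not stated, and with 1 group of 2 samples no test was made. Depth is unknown, and the precision is limited by the number of summits.

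Positions are 1-based. Gene spans are those of RefSeq for Release 6 plus ISO1 MT, to which dm6 corresponds. The table used gives no strand, transcript starts, exons or sequence, so the ends of a gene are called lower and upper by coordinate, introns, exons and UTRs were not assigned, and GATC sites and sequences were not used here. Tied heights share their mean rank in percentiles. The 9 genes, the lists and the rules were chosen with earlier results of these data known. Named were the 9 genes, protein-coding genes with an end within 1000 bp of their summits, up to 4 paired genes per list by mean percentile, and Set8. Other neighbours (CG8419, eIF2gamma, Set, CG14864, CG17147, Nmdmc, seq, CG17724, the antisense RNA and the genes beside list pairs) were added to the text with their values known. The alternatives tried were distances of 0, 500, 1000, 5000 and 10000 bp from the span, pairs within 200 or 1000 bp, summits above the median height, nearest spans only and single replicates. The software was matplotlib 3.10.9, SciPy 1.17.1, pandas 2.3.3 and numpy 2.4.6 under Python 3.11.15, and the counting was tested on simulated data.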

Additional observations from a re-analysis of the deposited data

How the results depend on the processing

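Of 60 recomputed values 40 stayed within 1.5 times the reported count, or within the 95% order-statistic interval of the median for height percentiles, and 20 moved further. By that limit, the counts of the 9 genes with a pair (3) and with a summit in both replicates (4) moved only within 10000 bp, a distance chosen after seeing the data, to 5 and 7, where 42.8% and 47.8% of all genes were reached. The summits counted then rose to 13 in replicate 1 and 16 in replicate 2. In replicate 2 they fell to 5 within 0 bp and within 500 bp. Replicate 1 alone gave 5 genes and replicate 2 alone 6, where 28.3% and 34.9% of all genes were reached, shares not matched for gene length. The count of genes with a pair fell from 3 to 2 within 0, 500 and 1000 bp, above the median height and by nearest span. The pair of G9a was the one lost. In the same settings 3 genes had a summit in both replicates, and within 5000 bp 6 had one. Changes from 3 to 2 and from 4 to 6 are exactly 1.5 times and were not counted as moved. The lists moved more, and most of their pairs lay outside the genes. Where a list count was 1 or 2, the loss of 1 gene was enough to pass the limit of 1.5 times. Heterochromatin proteins went from 6 pairs to 1 within 0 bp, 2 within 500 bp and 1 by nearest span. Other demethylases and JmjC proteins went from 1 to 0 within 0, 500 and 1000 bp and by nearest span. Within 5000 bp they went to 3. Methyltransferases went from 2 to 0 within 0, 500 and 1000 bp, to 5 within 5000 bp, and to 1 above the median height and by nearest span. No paired analysis was possible because the Dam-alone sample of each batch was not analysed here, which leaves 1 group, and the result comes from no test. Depth and the Dam background are unknown, so a gene without a summit cannot be told from one missed at this depth.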
